A study of Homo sapiens with 6 samples.

Results

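The genes described here are 10 members of the Notch pathway, out of 23686 genes counted in HEK293 cells. They comprise the receptors NOTCH1, NOTCH2 and NOTCH3, the ligands JAG1, JAG2 and DLL1, and the target genes HES1, HES4, HEY1 and HEYL. They were chosen by name, for their role in signalling between touching cells, with earlier results of these data known. All 10 had enough reads to be tested. The series compared 3 libraries of green fluorescent protein (GFP)-positive HEK293 cells that had shared a dish with HEK293 cells carrying DAAO for 10 h with 3 libraries of GFP-positive control cells, and both groups were sorted by flow cytometry before RNA extraction. HEK293 is an established human embryonic kidney line. DAAO commonly stands for D-amino acid oxidase, which makes hydrogen peroxide, a reactive oxygen species (ROS), from D-amino acids such as the D-alanine supplied at 25 µM. The labels call the controls "Wt" and carry the same treatment text for both groups, so whether the controls received D-alanine or grew beside other cells is not given in the sources used here, nor is whether the GFP-positive or DAAO line is 1 clone. Sorted cells and their partners are the same line, so expression markers cannot separate them.

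Notch receptors are single-pass membrane proteins that bind Jagged and Delta-like ligands on an adjacent cell. Pulling by the ligand-bearing cell exposes a cleavage site for ADAM10, gamma-secretase then releases the receptor's intracellular part, and that part joins the DNA-binding protein RBPJ and a Mastermind coactivator to switch on genes of the HES and HEY families. HES and HEY proteins are transcriptional repressors. HES proteins work with Groucho/TLE corepressors, and HES1 also represses its own gene. In kidney development the pathway helps to pattern the nephron.

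The promoters of 3 of the target genes are shown because they hold the RBPJ core motif. HES1 fell in the comparison and HES4 and HEYL did not pass the test, and the difference between the genes was not tested. Each run is the 250 bases before the gene's first listed RefSeq start site in GRCh38.p14, 5′ to 3′ on the gene's strand. The RBPJ core motif (GTGGGAA, sought on both strands) is in capitals. The windows are chr3:194135898-194136147 (+ strand) for HES1, chr1:1000098-1000347 (- strand) for HES4 and chr1:39639644-39639893 (- strand) for HEYL.
HES1: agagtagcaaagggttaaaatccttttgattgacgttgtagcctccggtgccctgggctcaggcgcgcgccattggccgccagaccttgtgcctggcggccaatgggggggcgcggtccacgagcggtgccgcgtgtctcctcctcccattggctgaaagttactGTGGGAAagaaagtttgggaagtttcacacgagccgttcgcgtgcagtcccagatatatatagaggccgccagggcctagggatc
HES4: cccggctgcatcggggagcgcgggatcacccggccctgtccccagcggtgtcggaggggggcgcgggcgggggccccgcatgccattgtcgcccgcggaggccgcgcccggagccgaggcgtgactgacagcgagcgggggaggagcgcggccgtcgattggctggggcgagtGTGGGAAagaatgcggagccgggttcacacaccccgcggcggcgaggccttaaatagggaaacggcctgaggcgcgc
HEYL: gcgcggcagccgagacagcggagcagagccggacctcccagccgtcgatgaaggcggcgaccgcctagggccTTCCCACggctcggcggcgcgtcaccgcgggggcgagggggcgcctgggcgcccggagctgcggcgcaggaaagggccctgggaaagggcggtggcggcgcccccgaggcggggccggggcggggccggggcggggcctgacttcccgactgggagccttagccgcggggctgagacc
The motif begins 85 bases before the start in HES1, 77 before it in HES4 and 178 before it in HEYL. RefSeq promoters were matched for 8 members, all but DLL1 and HEY1, and the motif lay in 3 of those 8 windows, against 5.43% of 35116 RefSeq promoters of the same length. The N-box CACNAG, also sought on both strands and a site type bound by HES proteins, occurred 3 times in the HES1 window, once in that of NOTCH3 and in no other of the 8, and 32% of all promoters held it. The E-box CACGTG was in none of the 8 windows and in 6.34% of all promoters. The N-box does not overlap the RBPJ core in these windows. A match describes the letters only.

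The libraries held 19091085 to 36250314 gene-assigned reads, and all levels below are in CPM, reads scaled to a common library total with trimmed means (TMM). A group mean is given with its SD and n = 3. The labels do not say whether libraries came from separate cultures. The p-values weigh a group difference against a spread between these libraries, partly pooled over genes, that may be technical. Adjusted p-values are from edgeR's quasi-likelihood test with Benjamini-Hochberg adjustment over all 14582 tested genes, and a gene is called changed at an adjusted p under 0.05. By that rule 4.83% of all tested genes were called, 2.66% higher and 2.17% lower in co-culture. All 8 HEK293 markers checked (such as PAX2, LHX1, NEFL and VIM) were detected in every library, with a summed level of 1771 to 1840 CPM in the controls and 2144 to 2361 CPM in co-culture. VIM was the largest part of that sum, at a mean of 967 CPM in the controls and 1279 CPM in co-culture. VIM and INA were called higher (edgeR adjusted p 0.00793 and 0.0118), and the other HEK293 markers were not called. PAX2 had a log2 change of -0.24 and LHX1 one of 0.037. Of 8 markers of leukocytes, endothelium and fibroblasts, 6 stayed at or under 0.404 CPM in each library, CD3E was at 0, and CD68 (7.48 to 11.2 CPM) and LUM (5.90 to 11.6 CPM) were detected. The fibroblast sum, nearly all LUM, was 9.86 to 11.8 CPM in the controls and 5.98 to 7.70 CPM in co-culture, and its part in the results below was not tested. For each of 4907 well-covered genes, the share of its reads on the unexpected strand was taken. The median of these shares was 1.57% to 1.75% in controls 1, 2 and 3 and co-culture library 1. It was 0.124% and 0.211% in co-culture libraries 2 and 3. These are medians over genes, not shares of all reads.

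HES1 was the 1 member of 10 that changed, and it fell by 22.2%. HES1 stood at 63.7, 60.0 and 62.4 CPM in controls 1, 2 and 3, and at 52.5, 46.2 and 46.2 CPM in co-culture libraries 1, 2 and 3. All 3 co-culture libraries lay below all 3 controls, and co-culture library 1 was the nearest to them. The means were 62.0 ± 1.84 CPM in the controls and 48.3 ± 3.63 CPM in co-culture (SD, n = 3 in both). The log2 change was -0.36 (SE 0.071, 95% interval -0.52 to -0.21) with an edgeR adjusted p of 0.0201. The share of members called, 1 of 10, stands beside a background of 4.83%. HES1 also was the 1 member whose groups did not overlap, where 29.3% of all tested genes showed no overlap. In bulk RNA, fewer cells with the transcript and less transcript per cell cannot be told apart.

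The decrease of HES1 kept its sign in each alternative tried, and its call was lost in some of them. Of 14 alternatives that do not pair libraries by number, 10 kept the call, with an edgeR, limma or DESeq2 adjusted p over the 14 from 0.00164 to 0.356. The call was lost without co-culture library 2 (-0.33, adjusted p 0.143), without co-culture library 3 (-0.33, 0.0689) and without control 2 (-0.39, 0.0842), in edgeR fits of the 5 other libraries. Those fits called, in that order, 0.503%, 2.18% and 0.44% of all tested genes, against 4.83% with all libraries. The HES1 call was lost as well with a batch term for the class of unexpected-strand reads, at -0.24 (SE 0.096, edgeR adjusted p 0.356). The fit with the batch term called 0.199% of all tested genes. In that fit the comparison rests on co-culture library 1, at 52.5 CPM, against the 3 controls, at 60.0 to 63.7 CPM. The class with the low median share of such reads holds co-culture libraries only. Without control 1 the value was -0.35 (edgeR adjusted p 0.00179).

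**Figure D1:**
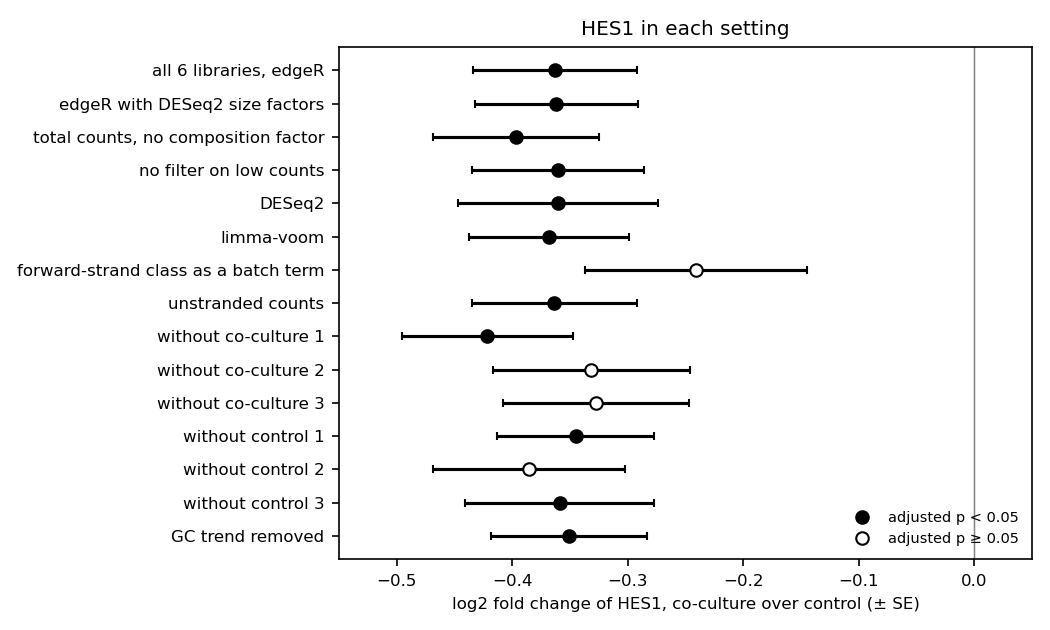
Log2 fold change of HES1, co-culture over control, on the horizontal axis (bars are the SE) for the fit on all 6 libraries and 14 alternatives on the vertical axis, with filled points for an adjusted p under 0.05. Every point lies between -0.42 and -0.24, and 4 alternatives are open.

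A ratio of raw counts within a library does not depend on the scaling between libraries. The HES1 to HEY1 ratio was 0.598, 0.631 and 0.670 in controls 1, 2 and 3 and 0.483, 0.459 and 0.441 in co-culture. The HES1 to JAG1 ratio was 0.802, 0.805 and 0.767 in the controls and 0.649, 0.602 and 0.615 in co-culture. The co-culture libraries lay below every control in 6 of the 9 ratios of HES1 to another member, beside 73.5% of 11646 genes averaging 5 CPM or more. The 3 ratios that overlapped were those to NOTCH1, NOTCH3 and HES4. In each of the 3, control 1 had the lowest control value, at 1.74 for HES1 to NOTCH1 where co-culture library 1 had 1.92.

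The other 3 target genes did not pass the test. HEY1, a HES-related repressor and the target with the most reads, stood at 106, 95.2 and 93.1 CPM in controls 1, 2 and 3 and at 109, 101 and 105 CPM in co-culture. Control 1 lay among the co-culture values and the other controls lay below them, for a log2 change of 0.092 (SE 0.067, 95% interval -0.055 to 0.24, edgeR adjusted p 0.438). HEYL, a further HEY-type repressor, was at 12.7, 12.0 and 12.7 CPM in the controls and 13.6, 12.2 and 11.7 CPM in co-culture. The groups overlapped fully, with an interval of the log2 change from -0.22 to 0.22. HES4, a HES repressor found in humans but not in mice, was at 36.3, 25.4 and 20.1 CPM in the controls and at 26.0, 31.1 and 27.3 CPM in co-culture. Its controls spanned a wider range than its co-culture libraries and enclosed them, and the interval was wide, from -0.40 to 0.51 (log2 change 0.051, SE 0.20, edgeR adjusted p 0.904).

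**Figure D2:**
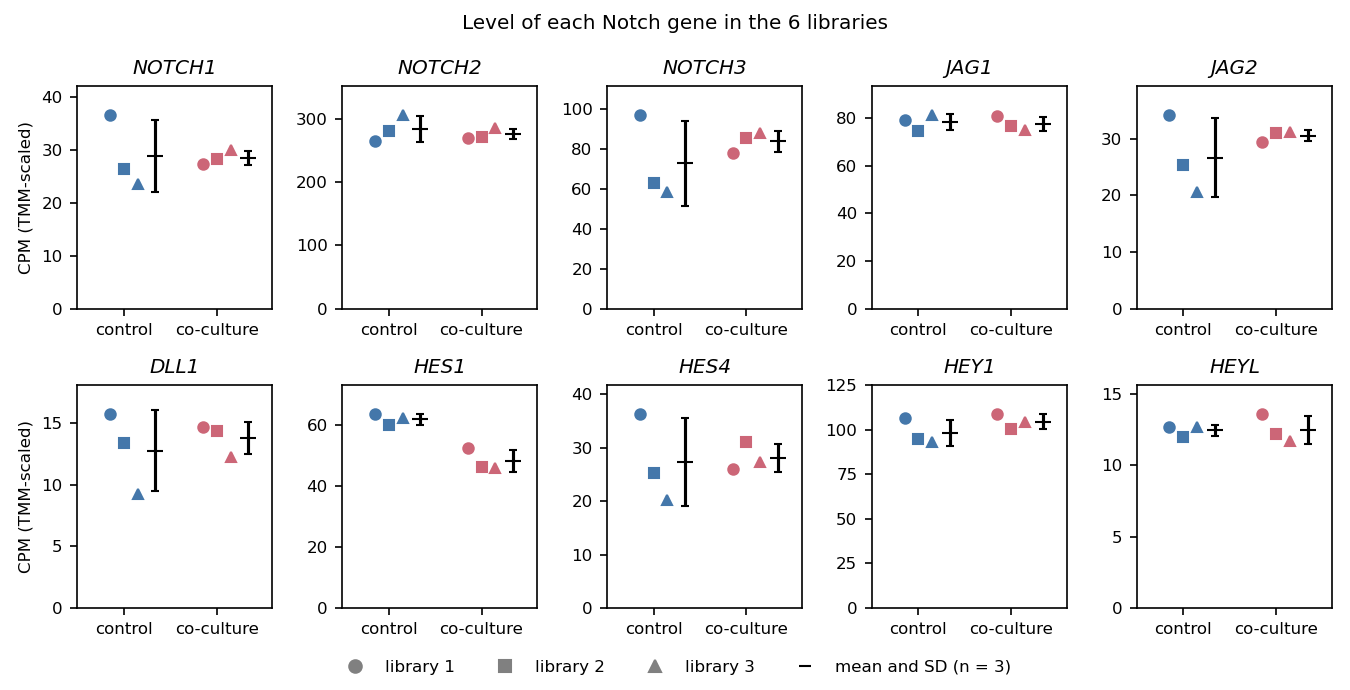
TMM-scaled CPM of each of the 10 Notch genes on the vertical axis, from 0, for the 3 control and 3 co-culture libraries, with symbols for the library number and a bar for the mean and SD (n = 3). The groups separate for HES1, while control 1 stands above controls 2 and 3 for NOTCH1, NOTCH3, JAG2, DLL1 and HES4.

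None of the 3 receptors passed the test with all 6 libraries. NOTCH2, the receptor with the most reads, was at 265, 281 and 306 CPM in controls 1, 2 and 3 and at 270, 272 and 285 CPM in co-culture. The groups overlapped, and the 95% interval of the log2 change ran from -0.19 to 0.10 (log2 change -0.043, SE 0.067, edgeR adjusted p 0.742). NOTCH2 has near-identical partial copies (NOTCH2NL), and STAR counts uniquely mapping reads only, so its level is uncertain. NOTCH1 was at 36.5, 26.3 and 23.5 CPM in the controls and at 27.3, 28.2 and 29.9 CPM in co-culture. NOTCH3, a receptor best known from vascular smooth muscle, was at 96.8, 62.9 and 58.2 CPM in the controls and at 77.9, 85.5 and 87.8 CPM in co-culture. For both genes the co-culture libraries lay close together, below control 1 and above controls 2 and 3. The log2 changes were -0.0086 for NOTCH1 (SE 0.14, edgeR adjusted p 0.978) and 0.21 for NOTCH3 (SE 0.19, edgeR adjusted p 0.549).

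Of the ligands, which signal to the neighbouring cell, 0 of 3 passed edgeR's adjusted threshold, 0 had an unadjusted p under 0.05 in that test, and 1 (JAG2) passed in 1 alternative, edgeR without control 1. JAG1 was the steadiest, at 79.4, 74.5 and 81.3 CPM in controls 1, 2 and 3 and at 80.9, 76.8 and 75.0 CPM in co-culture. Its groups overlapped and its 95% interval, from -0.15 to 0.12 on the log2 scale, was narrow. JAG2 was at 34.2, 25.3 and 20.6 CPM in the controls and at 29.5, 31.0 and 31.3 CPM in co-culture, again below control 1 and above the other controls. DLL1, a Delta-like ligand, was at 15.7, 13.4 and 9.24 CPM in the controls and at 14.7, 14.4 and 12.3 CPM in co-culture, with overlapping groups. The log2 changes were 0.20 for JAG2 (SE 0.16, edgeR adjusted p 0.475) and 0.11 for DLL1 (SE 0.17, edgeR adjusted p 0.737). Over the 10 members, 5 values were above 0 and 5 below, with a median of 0.025, beside a median of -0.0022 over all tested genes.

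Single controls moved the values of several members, control 1 in 1 direction and control 3 in the other. Without control 3 the log2 changes were 0.069 for NOTCH3, 0.040 for JAG2, -0.13 for HES4, -0.086 for DLL1 and -0.14 for NOTCH1, with edgeR adjusted p-values from 0.535 to 0.866, so that HES4 and DLL1 changed sign. DLL1 had the lowest level of the 6 libraries in control 3, as had NOTCH1, NOTCH3, JAG2 and HES4. Control 1 was the highest of the 6 libraries for 6 of 10 members (NOTCH1, NOTCH3, JAG2, DLL1, HES1 and HES4), where 24.5% of all tested genes had their highest level there, and the highest of the 3 controls for 8 of 10, where the share was 39.5%. Against the mean of controls 2 and 3, control 1 was higher by 0.67 for NOTCH3 and for HES4 on the log2 scale, by 0.57 for JAG2, by 0.55 for NOTCH1 and by 0.47 for DLL1. The differences were 0.18 for HEY1, 0.057 for HES1, 0.040 for HEYL, 0.027 for JAG1 and -0.15 for NOTCH2. Differences as high as that of NOTCH3 occurred in 1.80% of the 11647 genes averaging 5 CPM or more, and as high as that of DLL1 in 4.84%. The 5 members with the large differences had GC-rich transcripts, from 58.3% for DLL1 through 62.9% for NOTCH1, 63.1% for NOTCH3 and 64.0% for JAG2 to 73.9% for HES4. HEYL, at 59.1%, did not share the difference. Among the 11460 of those genes with a GC value, the median difference of control 1 from the other controls rose with GC content. It went from -0.14 in the lowest of 5 equal GC classes to 0.10 in the highest. In the highest class, 4.49% of genes reached the value of NOTCH3 and 11.8% reached that of DLL1. In 1 alternative, added after the data were seen, GC trends were removed in each library. The log2 changes of NOTCH1, NOTCH3, JAG2, DLL1 and HES4 were then 0.0084, 0.23, 0.22, 0.12 and 0.12, with edgeR adjusted p-values from 0.204 to 0.968. Before that step they were -0.0086, 0.21, 0.20, 0.11 and 0.051. In the same order of genes, the SEs were 0.14, 0.19, 0.16, 0.17 and 0.20 before the step. After it they were 0.096, 0.12, 0.10, 0.16 and 0.085. Control 1's differences were not recomputed in that fit, so the part of GC content in them was not tested.

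**Figure D3:**
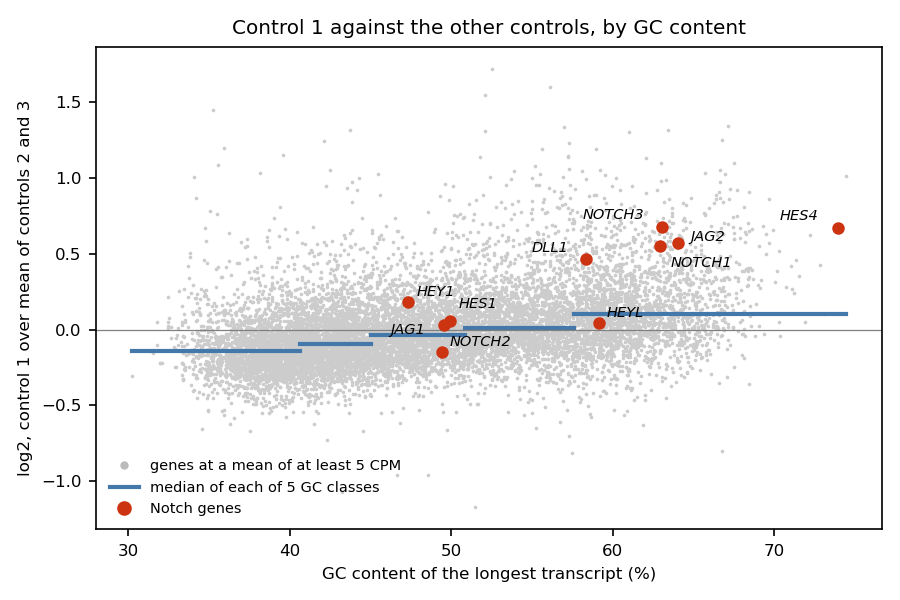
Log2 ratio of control 1 to the mean of controls 2 and 3 (vertical axis) against the GC content in percent of the longest GENCODE transcript (horizontal axis), for genes averaging 5 CPM or more in grey, the median of each of 5 GC classes in blue and the Notch genes in red. NOTCH1, NOTCH3, JAG2, DLL1 and HES4 lie between 0.47 and 0.67, above the median of 0.10 in the highest class, and HEYL lies at 0.040.

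In the edgeR fit without control 1, 5 of the 10 members were called, 4 higher and 1 lower, where 20.8% of all tested genes were called (10.6% higher and 10.3% lower). NOTCH3 had a log2 change of 0.47 (SE 0.064, edgeR adjusted p 8.37e-05) and JAG2 one of 0.42 (SE 0.087, edgeR adjusted p 0.00253). HES4 had 0.31 (SE 0.10, edgeR adjusted p 0.0451) and HEY1 0.15 (SE 0.052, edgeR adjusted p 0.0446), both near the threshold. NOTCH1 at 0.20 (SE 0.080, edgeR adjusted p 0.0843) and DLL1 at 0.29 (SE 0.15, edgeR adjusted p 0.177) did not pass. HES1 kept its sign and its call, so in that setting HES1 was lower while HES4 and HEY1 were higher. These 4 higher calls appeared in that setting only: over all 15 alternatives the adjusted p ran from 8.37e-05 to 0.914 for NOTCH3, from 0.00253 to 0.866 for JAG2, from 0.0451 to 0.993 for HES4 and from 0.0446 to 0.723 for HEY1. The part of control 1's own composition in these values was not tested beyond this comparison and the GC adjustment.

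**Figure D4:**
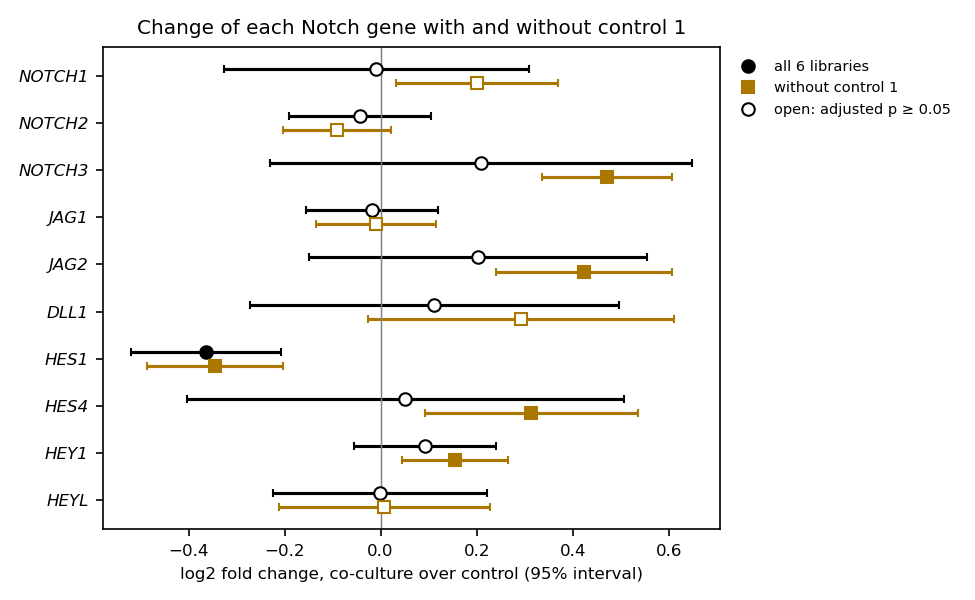
Log2 fold change of each Notch gene, co-culture over control, on the horizontal axis with its 95% interval, for all 6 libraries (black circles) and without control 1 (brown squares), with filled symbols for an edgeR adjusted p under 0.05. HES1 is filled and near -0.36 and -0.35 in both, while NOTCH3, JAG2, HES4 and HEY1 are filled without control 1 only.

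Levels were compared between genes per kilobase of the longest GENCODE transcript, which may differ from the authors' gene models. In the controls HEY1 was the highest at 42.8 ± 3.15 CPM per kb, followed by HES1 at 39.3 ± 1.17, HES4 at 26.2 ± 7.92 and NOTCH2 at 25.0 ± 1.82 (SD, n = 3). JAG1 (13.2 ± 0.588) and NOTCH3 (8.38 ± 2.43) came next, and JAG2 (4.58), DLL1 (4.02), HEYL (3.40) and NOTCH1 (3.09 CPM per kb) were lowest. NOTCH2 was thus the receptor and JAG1 the ligand with the highest level per length. In the controls the ranges of neighbours in this order overlapped for HES4 and NOTCH2 and for each step among the lowest 4. The order of the 10 means was the same in co-culture, where HES1, at 30.6 ± 2.30 CPM per kb, overlapped HES4, at 27.0 ± 2.54, instead of standing clear of it.

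The genes with the most similar profile were sought for the member with the lowest p in each role, as the smallest root mean square difference of centred log2 CPM over the 6 libraries among 11646 other genes averaging 5 CPM or more. For HES1 they included BARX2 (0.0389) and WHAMM (0.0419). BARX2 had 18.5, 18.3 and 17.8 CPM in the controls and 15.9, 13.2 and 13.9 CPM in co-culture, with co-culture library 1 again nearest to the controls. For NOTCH3 they were GNAZ (0.0203), HK2 (0.0335) and CACNA1H (0.0394), and for JAG2 they were FAM114A1 (0.0325), ADA (0.0335) and HK2 (0.0366). HK2 had 63.5, 43.4 and 37.8 CPM in the controls and 52.5, 55.5 and 56.9 CPM in co-culture, the same arrangement of control 1 above, and controls 2 and 3 below, the co-culture libraries. These genes were picked for their likeness over the same 6 libraries, so the shared arrangements follow from the choice and are no further evidence.

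A wider list of 60 other pathway genes was examined by role, and 57 were tested. The list too was written with earlier results of these data known, so shares called in it and in its roles are descriptions only. Of the 57 tested, 2 rose (MIB1 and NUMBL) and 3 fell (TLE1, TLE4 and DTX3L), or 8.77% beside the background of 4.83%. The median log2 change was -0.032. The groups did not overlap for 19 of the 57 (33.3%, beside 29.3% of all tested genes). HES3 and HES5 had 0 reads in every library, which allows up to 0.0828 to 0.157 CPM depending on the library and covers counting error only, and DLK1 had too few reads to test.

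MIB1, the ubiquitin ligase that drives ligand endocytosis in the sending cell, was at 283, 290 and 281 CPM in controls 1, 2 and 3 and at 353, 347 and 331 CPM in co-culture. All co-culture libraries lay above all controls, for a log2 change of 0.27 (SE 0.058, edgeR adjusted p 0.0272), and it was the 1 gene of the 4 in its role that rose, beside 2.66% of all tested genes. NUMBL, a relative of the Notch inhibitor NUMB, was at 27.7, 22.1 and 22.3 CPM in the controls and at 32.0, 33.8 and 32.4 CPM in co-culture (log2 change 0.45, SE 0.094, edgeR adjusted p 0.0257). NUMB itself, outside the rule for named genes and added after its values were seen, had a log2 change of -0.032 (SE 0.060, edgeR adjusted p 0.789). DTX3L, a ubiquitin ligase of the Deltex family, was at 35.1, 31.1 and 30.3 CPM in the controls and at 27.1, 24.9 and 24.2 CPM in co-culture (log2 change -0.34, SE 0.083, edgeR adjusted p 0.0442). In the receptor turnover role, 1 of 9 genes thus rose and 1 fell, beside 2.66% and 2.17% of all tested genes.

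Of 11 corepressor genes, 2 fell and 0 rose, beside 2.17% and 2.66% of all tested genes. Both were of the Groucho/TLE family that HES proteins recruit. TLE1 was at 78.9, 76.0 and 76.6 CPM in controls 1, 2 and 3 and at 60.0, 64.2 and 63.7 CPM in co-culture (log2 change -0.30, SE 0.060, edgeR adjusted p 0.0214). TLE4 was at 74.0, 78.1 and 81.9 CPM in the controls and at 64.4, 61.1 and 62.5 CPM in co-culture (log2 change -0.32, SE 0.063, edgeR adjusted p 0.0214). In both genes the groups stood apart with little spread within them. TLE2 and TLE3, named as the rest of the family after their values were seen, stood at log2 changes of -0.44 and -0.18 (SE 0.19 for TLE2 and 0.057 for TLE3; edgeR adjusted p 0.219 for TLE2 and 0.100 for TLE3). Their groups did not overlap, and TLE2 was at 31.0 CPM in control 1 against 18.3 and 18.5 CPM in controls 2 and 3, with -0.14 without control 1 (edgeR adjusted p 0.262). In that fit TLE3 was called lower, at -0.20 (SE 0.049, edgeR adjusted p 0.00716). Among the 11 corepressors the groups did not overlap for 5 lower and 1 higher gene, beside 15% and 14.3% of all tested genes.

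The other roles held no called gene in edgeR's test: 0 of 9 proteases and gamma-secretase subunits (3 at an unadjusted p under 0.05, where 23.2% of all tested genes stood), 0 of 5 glycosylation enzymes (1), 0 of 9 genes of the nuclear complex (2), 0 of 5 other receptors and ligands (1) and 0 of 5 other targets (0). The gene with the lowest p in each was FURIN, the protease that cuts the receptor on its way to the surface (log2 change 0.16, SE 0.061, edgeR adjusted p 0.144), POGLUT1, an O-glucosyltransferase of Notch (-0.25, SE 0.091, 0.126), the acetyltransferase CREBBP (-0.28, SE 0.081, 0.0749), the Delta/Notch-like receptor DNER (-0.37, SE 0.12, 0.106) and the HES-family gene HES6 (-0.12, SE 0.13, 0.624). Of these 5, CREBBP passed in 3 alternatives (DESeq2, total counts, and edgeR without control 1) and POGLUT1 in 1, edgeR without control 1. The other targets, HES6 among them, were listed from general knowledge, and whether Notch drives each of them in these cells was not tested. RBPJ, the DNA-binding partner, also outside the rule and added after its values were seen, was at 167, 171 and 159 CPM in controls 1, 2 and 3 and at 180, 173 and 172 CPM in co-culture, with a log2 change of 0.080 (SE 0.058, edgeR adjusted p 0.441).

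**Figure D5:**
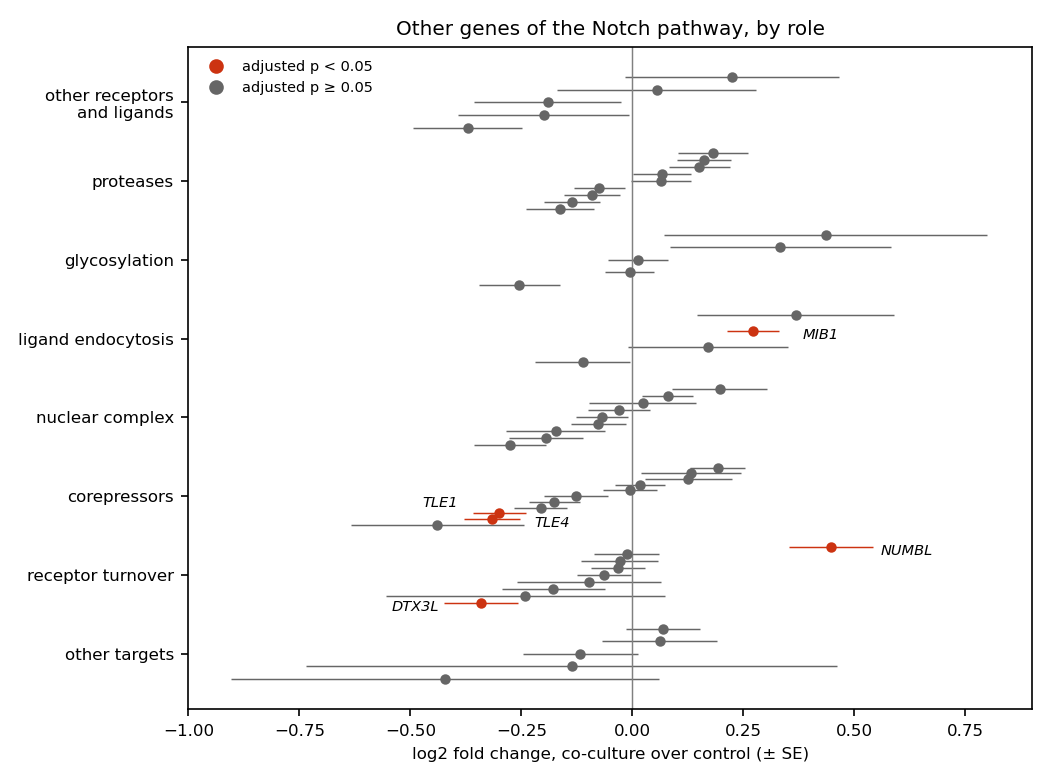
Log2 fold change, co-culture over control, with its SE on the horizontal axis for the 57 tested genes of the wider Notch list, grouped by role on the vertical axis, with genes at an edgeR adjusted p under 0.05 in red. MIB1 and NUMBL lie to the right of 0 at 0.27 and 0.45, and TLE1, TLE4 and DTX3L to the left between -0.34 and -0.30.

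The 5 calls of the wider list were also lost in some fits. Each was lost in the edgeR fits that left out any 1 co-culture library or control 2, and in the fit with a batch term for the class of unexpected-strand reads. Of all tested genes, 0.831%, 0.503% and 2.18% were called without co-culture libraries 1, 2 and 3, and 0.44% without control 2. The share was 0.199% with the batch term, against 4.83% with all libraries and no such term. The log2 changes of the 5 genes in those fits kept their sign. Over the fits that left out a library they ran from 0.26 to 0.30 for MIB1, from 0.39 to 0.56 for NUMBL, from -0.32 to -0.27 for TLE1, from -0.35 to -0.28 for TLE4 and from -0.38 to -0.28 for DTX3L. The adjusted p over all 15 alternatives ran from 0.000565 to 0.231 for MIB1, from 6.91e-05 to 0.299 for NUMBL, from 0.00231 to 0.194 for TLE1, from 0.000380 to 0.310 for TLE4 and from 0.0169 to 0.451 for DTX3L. With GC trends removed MIB1 stood at 0.18 and lost its call (edgeR adjusted p 0.0842), and with unstranded counts DTX3L did (-0.34, edgeR adjusted p 0.0561). Without control 1 the count was 13 of 57, 4 higher and 9 lower (22.8%, beside 20.8% of all tested genes). Among the 13 were EP300 at -0.29 (edgeR adjusted p 0.000542) and NEURL1B, a ubiquitin ligase of the Neuralized family, at 0.72 (edgeR adjusted p 8.02e-05), both named after their values were seen. NEURL1B was at 19.4 CPM in control 1, at 10.0 and 10.9 CPM in controls 2 and 3, and at 18.2, 16.9 and 16.8 CPM in co-culture, so that control 1 lay above and the other controls below the co-culture libraries.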

How the data were processed

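TriPure RNA went into a stranded Illumina mRNA kit, per the labels' protocols. The submitters' processing notes name STAR 2.53a, FastQC and the build hg18, and the annotation is not given in the sources used here. The deposited counts are raw reads per gene in STAR's layout, 1 file per library with unstranded, forward and reverse columns. The reverse-strand counts were used. The 4 summary lines (in all 24.2% to 28.5% of reads) were left out.

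Groups came from the titles. Library pairs within a group differed beyond sampling noise (chi-square per degree of freedom 4.73 to 18.5). The model had 1 term, group, in edgeR 4.0.16 under R 4.3.3, after filterByExpr (minimum count 10) and TMM scaling, with robust quasi-likelihood F tests. SE was taken as |log2 change| / √F. DESeq2 1.42.0 and limma 3.58.1 (voom) were alternatives, as were other scalings, filters, strands, batch terms and left-out libraries. Scripts were tested on simulated data. 1 read was worth 0.0276 to 0.0524 CPM.

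The members and lists were chosen with earlier results of these data known. Named genes were all members, list genes past the threshold, the list gene of lowest p in each role, and the 3 nearest profiles. NUMB, RBPJ, TLE2, TLE3, EP300 and NEURL1B were added after their values were seen. A gene that met the rule is not reported here. NEURL1 was matched under an older symbol. Gene lengths and GC content came from GENCODE release 29 (98.4% of genes averaging 5 CPM or more matched), and promoters from RefSeq.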

Additional observations from a re-analysis of the deposited data

How the results depend on the processing

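The number of genes called, 704 over all tested genes, 1 among the 10 members and 5 in the wider list, was within 1.5 times of these values with DESeq2 size factors, no filter, DESeq2, limma-voom, unstranded counts and GC trends removed. With total counts the wider list gave 8, and of all calls 310 were higher and 572 lower, against 388 and 316. With a batch term for the strand class, the counts were 29, 0 and 0. In the edgeR fits that left out a library they ran from 65 (without control 2) to 3069 (without control 1) over all genes, from 0 to 5 among the members and from 0 to 13 in the wider list. At an unadjusted p under 0.05, edgeR gave 1 member and 15 of 57 list genes with all libraries, beside 23.2% of all tested genes.

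The replicate numbers are shared by label only. Deviations from the group means correlated at -0.070, -0.19 and -0.18 between libraries 1, 2 and 3 of the groups, and the numbers were not taken to pair them. With the replicate number as a block, 164 genes in all, 0 members and 0 list genes were called. HES1 then stood at -0.36 (edgeR adjusted p 0.0642), and no co-culture library correlated best with the control of its own number.

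Members near 0 changed sign in some settings. NOTCH1 was 0.032 with limma-voom, 0.013 with the replicate block, 0.0043 unstranded and 0.0084 with GC trends removed, and ran from -0.14 to 0.20 when a library was left out. JAG1 (0.044) and HES4 (-0.064) changed sign with the strand class. HEYL was 0.000083 with DESeq2 size factors, 0.0017 with no filter, 0.0019 with DESeq2, 0.12 with the strand class and 0.019 unstranded. When a library was left out, the ranges were -0.090 to 0.015 for NOTCH2, -0.052 to 0.010 for JAG1, -0.086 to 0.29 for DLL1, -0.13 to 0.31 for HES4, -0.058 to 0.051 for HEYL and -0.23 to 0.034 for HES6. HES1 ran from -0.42 to -0.33, NOTCH3 from 0.069 to 0.47 and JAG2 from 0.040 to 0.42. The causes were not tested. The SE of a member's log2 change was 0.062 to 0.20 with 3 libraries per group, which limits the size of change that could be detected.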
